A study of Rattus norvegicus with 8 samples.

Results

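Brevican and a small group of glial and myelin genes were followed in the adrenal glands of rat pups kept in low oxygen. The group holds 6 genes, Bcan, Gfap, S100b, Mbp, Cnp and Mag, out of 10411 genes named on the array. Bcan was selected on its measured difference between hypoxic and normoxic glands, and the other members were added for their place in Schwann cells and other glia with results of that comparison known, so their differences in it are described here without a test. The members were read by 9 probe sets (short sets of oligonucleotides against one transcript), 2 each for Bcan, Mbp and Cnp and 1 each for Gfap, S100b and Mag.

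The pups were of the species Rattus norvegicus and were studied on postnatal day 7. In the hypoxic group the pups and their dams breathed 12% O2 from birth, and in the normoxic group they stayed in room air with dams that fed freely. Each group had 4 samples, and each sample was a pool of 24 glands whose capsule had been stripped off. Strain, sex and the spread of litters over pools are not given in the sources used here, and p-values measure the spread between pools. Each pool was read on one single-colour array, and the values are intensities in arbitrary units that the authors had scaled to a common mean, so levels of different probe sets are not compared with each other. With so few arrays, their number sets how precise any value can be.

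The adrenal medulla is innervated by sympathetic preganglionic fibres, and Schwann cells accompany these fibres between the chromaffin cells. Myelinating Schwann cells wrap axons in membrane that Mbp, Cnp and Mag help to build and hold in place, while non-myelinating Schwann cells and related glia are known for the intermediate filament protein GFAP and the calcium-binding protein S100B. Brevican is a chondroitin sulphate proteoglycan of the lectican family, best known from the matrix around neurons and glia of the brain, where it binds hyaluronan and tenascin-R.

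Brevican was the member that differed. Its brighter probe set, 1387934_at, read 894.8, 1099.2, 821.6 and 692.8 in normoxic pools 1 to 4 and 453.5, 524.6, 495.8 and 469.0 in hypoxic pools 1 to 4. All 4 hypoxic pools lay below all 4 normoxic pools, and the hypoxic pools were close together. The means were 877 ± 170 and 486 ± 31.3 (SD, n = 4 pools each) on the linear scale. On the scale of the fit, the mean of log2 of intensity plus 16, the difference was -0.81 (standard error 0.13), or 1.76-fold lower in hypoxic glands. This is the value that Bcan was chosen by, so it is a description. With 1 pool left out in turn, the log2 difference ran from -0.92 to -0.70, and the adjusted threshold that had singled the probe set out was met in 0 of these 8 fits (limma). Over the whole array, at most 2 probe sets passed in these fits, save without hypoxic pool 1, where 31 did.

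The dimmer Bcan probe set, 1369831_at, which the platform annotation ties to another transcript record of the gene, showed less separation. It read 245.3, 296.7, 317.7 and 212.8 in normoxic pools and 141.2, 283.5, 275.2 and 183.5 in hypoxic pools. Hypoxic pools 2 and 3 lay inside the normoxic range, while hypoxic pools 1 and 4 lay below it. The log2 difference was -0.30 with a standard error of 0.21 and a 95% interval from -0.76 to 0.16. It ran from -0.43 to -0.12 with single pools left out. The -0.12 came without hypoxic pool 1, which read lowest on this probe set and had the lowest beta-actin 5' over 3' ratio, 0.249. The difference moved in opposite ways with signs of RNA integrity in the fit. It was -0.43 with the ratio of 5' to 3' Gapdh signal and -0.13 with that of beta-actin, the latter chosen after the data were seen. The annotation does not say which brevican isoform, the secreted or the membrane-anchored one, either probe set reads. In pooled glands, fewer cells of a type and less RNA per cell cannot be told apart.

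**Figure D1:**
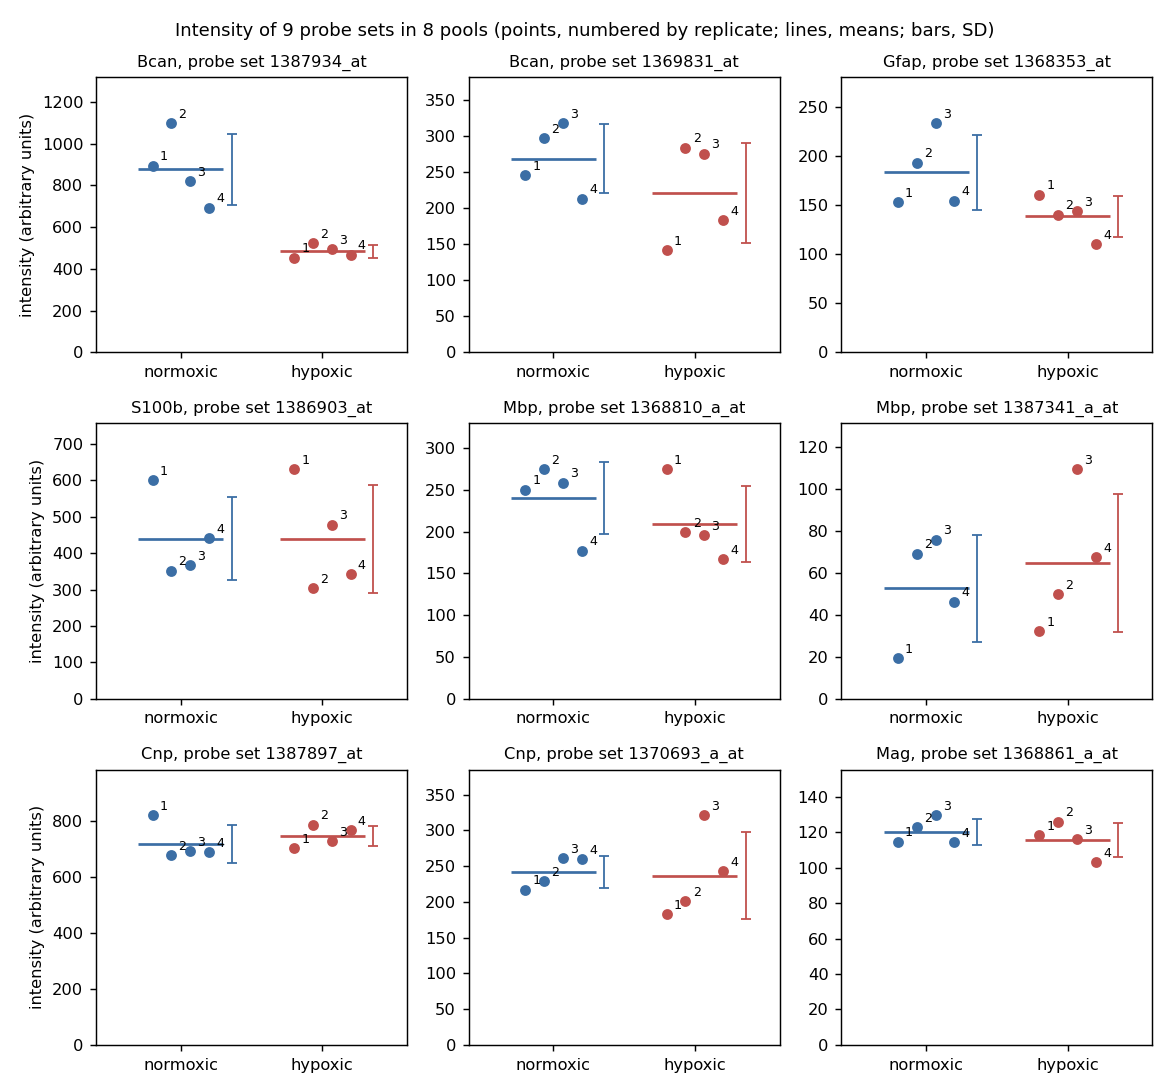
Intensity (arbitrary units, linear axis from 0) of the 9 probe sets in each pool; points are pools numbered by replicate, horizontal lines are group means and bars at the side are SDs over 4 pools. The hypoxic and normoxic points separate for the Bcan probe set at the top left and overlap in the other 8 panels.

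To show what stands in front of the gene that differed and of the myelin genes that read much the same in both groups, the 250 bases before the start of Bcan, Cnp and Mag were taken from RefSeq, assembly GRCr8. They lie at chr2:175765315-175765564 on the minus strand, chr10:86011254-86011503 on the plus strand and chr1:95291045-95291294 on the minus strand. Capitals mark the core letters that SOX factors such as the glial regulator SOX10 can bind (ACAAAG), and the core letters that hypoxia-inducible factors can bind (ACGTG or GCGTG), searched on both strands.
Bcan: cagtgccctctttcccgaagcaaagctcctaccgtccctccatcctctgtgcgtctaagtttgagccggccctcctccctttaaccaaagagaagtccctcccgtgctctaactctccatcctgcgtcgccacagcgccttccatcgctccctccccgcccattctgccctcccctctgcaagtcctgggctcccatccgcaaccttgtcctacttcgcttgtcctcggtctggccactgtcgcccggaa
Cnp: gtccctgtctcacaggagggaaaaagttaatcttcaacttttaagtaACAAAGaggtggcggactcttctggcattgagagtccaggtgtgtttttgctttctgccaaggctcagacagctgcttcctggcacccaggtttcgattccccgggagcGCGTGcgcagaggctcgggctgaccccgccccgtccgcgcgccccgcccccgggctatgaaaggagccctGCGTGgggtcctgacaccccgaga
Mag: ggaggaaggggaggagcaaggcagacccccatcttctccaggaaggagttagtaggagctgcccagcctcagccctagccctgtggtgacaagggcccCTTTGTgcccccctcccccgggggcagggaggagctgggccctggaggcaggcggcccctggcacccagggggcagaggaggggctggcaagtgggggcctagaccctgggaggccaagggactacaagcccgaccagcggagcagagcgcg
The Bcan window held 0 matches of either kind. The Cnp window held 1 SOX core, 203 to 198 bases before the start, and 2 hypoxia cores of the form GCGTG, while the Mag window held 1 SOX core on the other strand, 152 to 147 bases before the start. The windows of Gfap and S100b held 0 matches of either kind, and the 2 Mbp windows held 1 SOX core and 2 hypoxia cores between them. Among 33469 windows of this length in the table, 16.3% held the SOX core and 36.7% a hypoxia core. A match is a description of letters, and its absence from this window says nothing about the factor.

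Gfap, the gene of the glial filament protein, leaned lower in hypoxic pools. Its probe set read 153.2, 193.5, 233.8 and 154.7 in normoxic pools and 160.9, 140.4, 143.8 and 110.3 in hypoxic pools. Hypoxic pool 1 lay above normoxic pools 1 and 4, and the other 3 hypoxic pools lay below every normoxic pool. The means were 184 ± 38.2 and 139 ± 21.0 (SD, n = 4 pools each), with a log2 difference of -0.36, a standard error of 0.17 and a 95% interval from -0.73 to 0.01. The sign was the same in all 18 alternative fits in which the probe set was kept, from -0.43 to -0.25. In some of these, such as the replicate block, the difference cannot move.

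S100b, which encodes a calcium-binding protein of glia that adipocytes also make, read 600.5, 352.3, 367.7 and 440.7 in normoxic pools and 630.7, 304.4, 477.8 and 342.9 in hypoxic pools. The groups covered the same range, with means of 440.3 ± 114 and 439 ± 148 (SD, n = 4 pools each) and a log2 difference of -0.03, whose 95% interval reached from -0.52 to 0.46. Its spread was wide, 25.8% of the mean in normoxic and 33.7% in hypoxic pools. The pools high in S100b were also high in markers of fat. The summed intensity of 8 adipose genes was 13521.5, 4720.3, 5595.6 and 12284.3 in normoxic pools and 8591.1, 3858.0, 10130.2 and 5722.8 in hypoxic pools. Within the normoxic group both S100b and the adipose sum placed the pools in the order 1, 4, 3, 2, and within the hypoxic group both had pool 2 lowest and pools 1 and 3 highest.

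A sum over 9 capsule and fibroblast genes, from 12833.8 to 25953.3 in normoxic and from 15770.5 to 26269.5 in hypoxic pools, gave the same order of pools as S100b in each group, in glands whose capsule had been stripped off. On deviations from the own group mean over 8 pools, S100b had r = 0.94 with the summed glial filament, calcium-binding and astrocyte genes, 0.89 with the capsule and fibroblast sum and 0.84 with the adipose sum. These r are descriptions of arrays that share a scaling. The first sum is weighted to its brightest genes, such as Gja1 (means 9097 normoxic and 9518 hypoxic) and Vim (2982 and 3306). It is not a measure of glia alone. The part of capsule in the S100b signal was not tested, and that of fat was looked at in 1 fit. With the adipose sum as a covariate, a setting chosen after the data were seen, the S100b difference was 0.11 in place of -0.03, and the difference of the brighter Bcan probe set was -0.86 in place of -0.81.

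**Figure D2:**
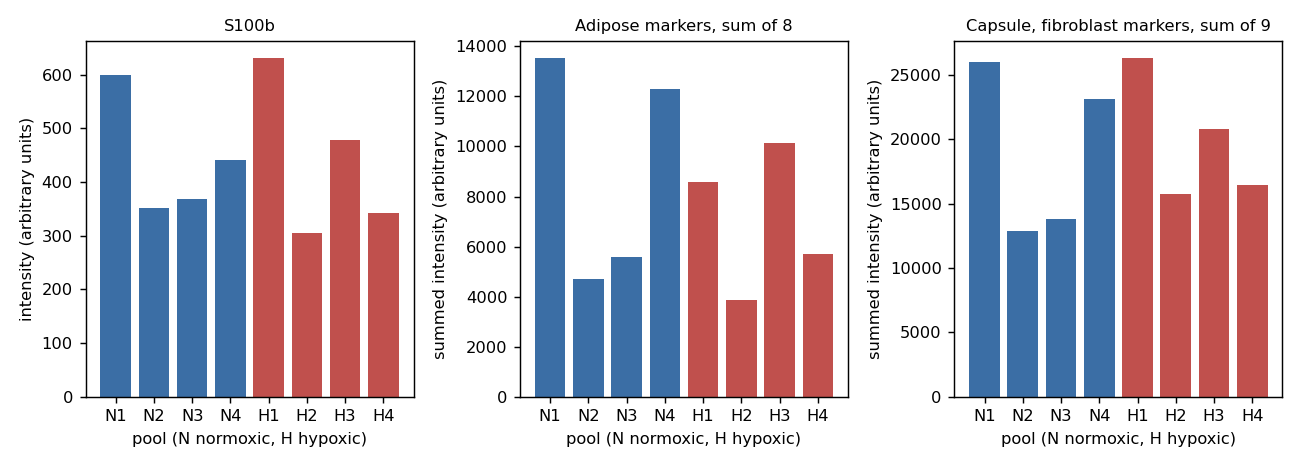
S100b intensity (left), the summed intensity of 8 adipose genes (middle) and of 9 capsule and fibroblast genes (right) in each pool, in arbitrary units on axes from 0; N marks normoxic and H hypoxic pools. Pools N1 and N4 stand highest of the normoxic pools and H1 and H3 highest of the hypoxic pools in all 3 panels.

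The myelin genes gave small differences whose intervals span 0. Mbp, whose protein compacts the myelin sheath, read 250.4, 274.7, 258.4 and 177.1 in normoxic and 274.7, 199.1, 195.4 and 167.2 in hypoxic pools on its brighter probe set, 1368810_a_at. Hypoxic pool 1 matched the highest normoxic pool, hypoxic pools 2 and 3 lay between normoxic pool 4 and the other normoxic pools, and hypoxic pool 4 was the lowest of all. The log2 difference was -0.19 with a standard error of 0.18 and a 95% interval from -0.57 to 0.19. The other Mbp probe set, 1387341_a_at, read between 19.2 and 75.9 in normoxic and between 32.2 and 109.5 in hypoxic pools. That is near the 95th percentile of 46.6 of the probe sets for bacterial spike controls, and it was left out of the test with the dimmest 30% of probe sets. Without that filter its log2 difference was 0.24 (95% interval from -0.56 to 1.04).

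Cnp, the gene of the phosphodiesterase of non-compact myelin, read much the same in both groups. Its brighter probe set, 1387897_at, read 818.8, 676.0, 690.5 and 687.9 in normoxic and 703.0, 786.4, 728.0 and 765.4 in hypoxic pools. Normoxic pool 1 was the highest of all 8, and the hypoxic pools lay between it and the other normoxic pools. The log2 difference was 0.06, its 95% interval running from -0.16 to 0.27, the narrowest interval of the members. The dimmer Cnp probe set, 1370693_a_at, ran from 217.2 to 261.5 in normoxic and from 182.7 to 320.9 in hypoxic pools, with a log2 difference of -0.05 whose sign turned without hypoxic pool 1, without hypoxic pool 2 and with the beta-actin covariate.

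Mag, an adhesion protein on the inner face of myelin next to the axon, read 114.6, 122.9, 129.4 and 114.2 in normoxic and 118.4, 126.0, 115.9 and 103.0 in hypoxic pools. Hypoxic pool 4 was the lowest, and the others lay inside the normoxic range. The log2 difference was -0.05, its 95% interval running from -0.36 to 0.26. These values lie a little above the brightness limit of 95.2, so a change of Mag would be understated on the scale used.

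**Figure D3:**
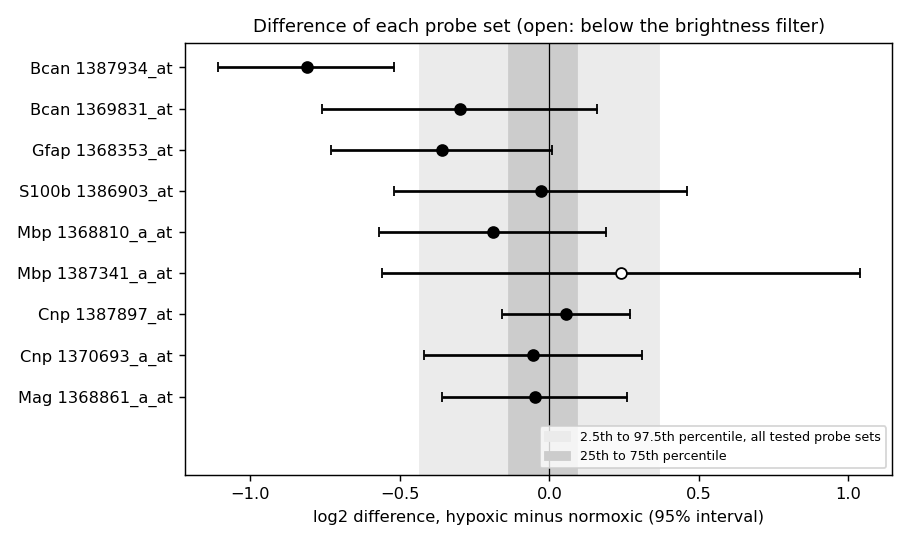
Log2 difference of each probe set, hypoxic minus normoxic, with its 95% interval (limma); the open point is the Mbp probe set below the brightness filter. Shaded bands hold the middle 95% and, between the 25th and 75th percentile, the inner part of the 11106 tested probe sets, from -0.43 to 0.37 and from -0.14 to 0.09; the brighter Bcan probe set, at -0.81, lies outside the wider band.

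Of the 8 tested member probe sets, 7 had a log2 difference below 0, where 54.8% of all 11106 tested probe sets did. The groups did not overlap for 1 of the 8, the Bcan probe set by which the group was chosen, where this was so for 5.39% of the tested probe sets. The same probe set was the 1 member that passed an adjusted p of 0.05 in limma. In all, 20 tested probe sets (0.180%) passed, 7 of them lower in hypoxic glands (0.0630%). Nothing is read from these counts, since the comparison had been used in choosing Bcan.

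The members did not vary as a unit between pools of a group. Over the 8 pools, taking each log2 value as its deviation from the mean of its own group, r between 2 member probe sets ran from -0.59 to 0.84. The highest was between Gfap and Mag. It was 0.78 between the dimmer Mbp and dimmer Cnp probe sets and 0.70 between Gfap and the brighter Mbp probe set, and the lowest was between S100b and the dimmer Bcan probe set. The 2 Bcan probe sets had r = 0.54, and the 2 Cnp probe sets r = -0.21. These are descriptions of 8 arrays that share a scaling, and no test was made.

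The same measure was used to find the genes that varied most like Bcan within the groups, among 8005 others. On deviations from the own group mean over 8 pools, the highest r with the brighter Bcan probe set was 0.990 for Abhd14a, then 0.972 for Tceanc2, 0.956 for Timm29, 0.944 for Tango2 and 0.943 for Per2, the circadian repressor. The lowest was -0.980 for the chemokine gene Ccl2, then -0.972 for Aup1 and -0.948 for Arpp21. Group differences play no part in these r. Per2 was higher in hypoxic pools, unlike Bcan, by 0.38 (limma, adjusted p = 0.249), and its groups did not overlap. Abhd14a, Tceanc2, Timm29 and Tango2 differed by 0.07, 0.004, 0.09 and -0.12. On the log2 values themselves, where the group difference counts too, the highest r was 0.982 for Cyp4f6, then 0.979 for Pdzph1 and 0.960 for Nhp2. Cyp4f6 had means of 435 ± 71.8 and 296 ± 17.0 (SD, n = 4 pools each). A group difference like that of Bcan is part of how these last 3 were picked, and no p is given for any of the values, which rank 8005 genes over 8 arrays. The brighter Bcan probe set spread by 19.4% of its mean in normoxic and 6.44% in hypoxic pools. The normoxic pools therefore weigh most in its r on deviations.

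Other genes of glia and of brevican's matrix were set beside the members from 4 lists of 102 genes in all. Of these, 78 had a probe set of their own on the array and 44 were bright enough to test, and 0 passed an adjusted p of 0.05 in limma over all probe sets, where 0.225% of all tested genes did. At an unadjusted p of 0.05, 6 of the 44 passed, where 8.56% of all tested genes did. The groups did not overlap for 3 of the 44, where 5.75% of all tested genes were separated. In direction, 26 were higher and 18 lower in hypoxic glands.

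Markers of Schwann cell identity ranged from bright to background. Of 26 genes 17 were on the array and 8 were tested, with 6 higher, 2 lower and a median log2 difference of 0.08, against -0.02 over all tested probe sets. Sox10, the regulator that defines the Schwann lineage, ran from 22.9 to 139.9 over the 8 pools and its mean lay below the brightness limit. Foxd3, a factor of early neural crest glia, lay between 2.5 and 5.7, within the range of the bacterial controls. Erbb3, the neuregulin receptor of Schwann cells, had a difference of 0.13 with a standard error of 0.22. Gap43, a growth-associated protein of axons and immature Schwann cells, measured 380 ± 46.4 and 562 ± 168, a log2 difference of 0.51 (limma, adjusted p = 0.414), with hypoxic pool 1 highest at 798.4. Genes that other cells use too were also tested, such as the cadherin gene Cdh2, at 403 ± 57.2 and 344 ± 48.1, and the integrin gene Itga6, at 243 ± 52.4 and 206 ± 43.1. The other tested genes of the list, Ngfr, Egr2, L1cam and Itgb4, differed by 0.09, 0.02, 0.10 and 0.07. Sox10 and Foxd3 gave little signal, while other genes of the list were bright enough to test. The label of Schwann or glial markers rests on what the members are known for.

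The myelin list was thinner. Of 27 genes 17 were on the array under a symbol of their own and 5 were tested, 2 higher and 3 lower, with a median of -0.05. Pmp22, a membrane protein of peripheral myelin, differed by 0.16 (standard error 0.16) on 1 probe set and by 0.01 on another. Cldn11, a tight junction protein of myelin, differed by -0.42 (limma, adjusted p = 0.830) and, on a dimmer probe set, by -0.38 (adjusted p = 0.641). Tspan2 differed by 0.21 and -0.03, while Prx, the periaxin of Schwann cells, differed by -0.05.

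Among the lecticans, their partners and the enzymes that make or cleave them, 15 of 28 genes were tested, with 11 higher, 4 lower and a median of 0.04. Of the other lecticans, only Acan had a tested probe set. Acan, aggrecan, differed by -0.15 with a standard error of 0.16, and the probe sets of Vcan and Ncan lay below the brightness limit in their mean over all pools. Chsy1, a chondroitin synthase, measured 645 ± 56.6 and 541 ± 36.8, a log2 difference of -0.25 (limma, adjusted p = 0.534), and its hypoxic pools lay below all normoxic pools. Lyve1, a hyaluronan receptor of lymphatic vessels and macrophages, measured 359 ± 28.1 and 474 ± 85.7, a difference of 0.37 (adjusted p = 0.432), and its groups did not overlap either. Xylt2 differed by -0.31 (limma, adjusted p = 0.648), and by -0.09 and -0.15 on its other probe sets. The protease gene Adamts1 differed by 0.03 and Cd44, another hyaluronan receptor, by -0.11 and 0.04 on its probe sets. Hmmr differed by 0.06 on the probe set that stands for it in the list, with overlap. On its other probe set the difference was -0.40 (limma, adjusted p = 0.399), and the groups did not overlap.

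Filament, calcium-binding and astrocyte genes, the wider kin of Gfap and S100b, gave 7 higher and 9 lower of 16 tested, with a median of -0.09. Nes, the filament protein nestin of progenitor cells, read 462.1, 648.5, 526.1 and 495.9 in normoxic and 289.4, 417.2, 211.9 and 415.2 in hypoxic pools. Every hypoxic pool lay below every normoxic pool, and the log2 difference was -0.69, standard error 0.20 (limma, adjusted p = 0.286). S100a13, a relative of S100b, measured 321 ± 71.1 and 181 ± 42.6, a difference of -0.77 (adjusted p = 0.201), and S100a1 differed by -0.62 (adjusted p = 0.547). Vim, the filament protein of many cell types, differed by 0.15, and Slc1a3, a glial glutamate transporter, by 0.12, -0.03 and -0.30 on its 3 probe sets.

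Genes of the axon and neuron list leaned higher in hypoxic pools. Of 15 tested axon and neuron genes 13 were higher, where 52.5% of all tested genes were lower, with a median of 0.34, and the summed intensity ran from 7491.4 to 9328.9 in normoxic and from 9250.0 to 10112.8 in hypoxic pools. In limma 0 met the adjusted threshold, and 8 were at an unadjusted p under 0.05, where 8.56% of all tested genes were. Map1b, a microtubule protein of growing axons, read 504.9, 483.5, 469.0 and 420.1 in normoxic and 679.1, 715.8, 725.8 and 651.5 in hypoxic pools, without overlap. Its difference was 0.55, standard error 0.10 (limma, adjusted p = 0.0669). Ina, the neurofilament protein internexin, differed by 0.44 (adjusted p = 0.296) and Tubb3, the neuronal tubulin, by 0.44 (adjusted p = 0.380). Gap43 stands in both this list and the Schwann cell list. The chromaffin list was also higher, in 9 of 9 genes, and which cells gave the signal of the axon and neuron list was not tested. The brighter Bcan probe set had r = 0.72 with the sum of this list on deviations from the own group mean over 8 pools. That was the highest of its r with the 11 lists, and the normoxic pools, where Bcan spread most, weigh most in it. The dimmer Bcan probe set had r = 0.07.

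**Figure D4:**
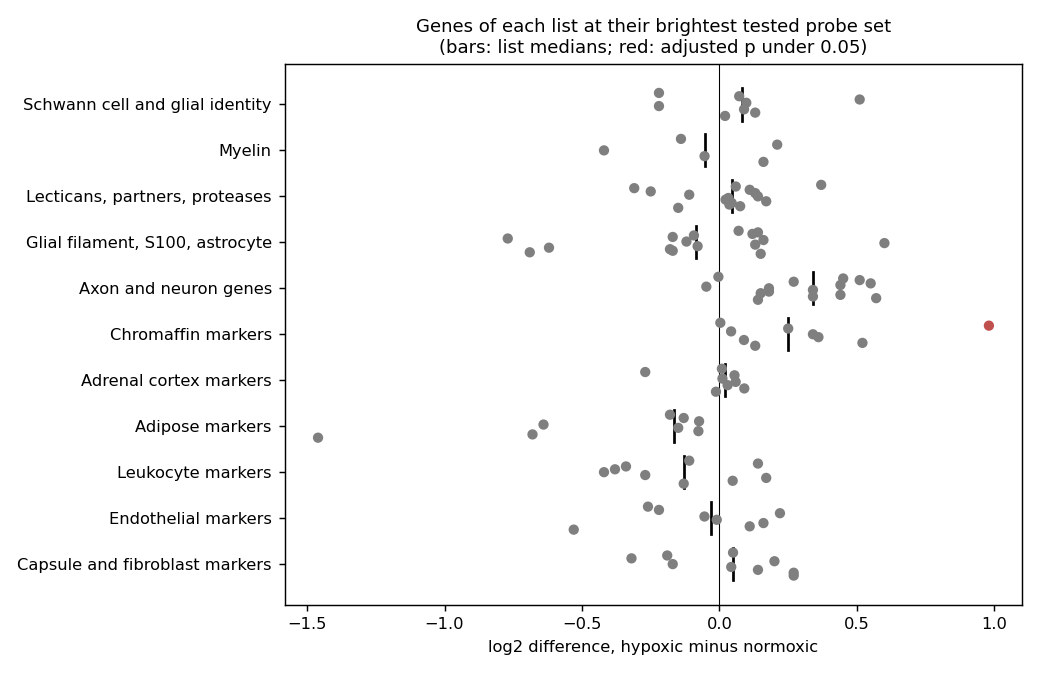
Log2 difference, hypoxic minus normoxic, of the genes of 11 lists at their brightest tested probe set; each point is a gene, black bars are list medians and red marks an adjusted p under 0.05. The glial lists at the top scatter around 0, with medians from -0.09 to 0.08, the axon and neuron genes lie mostly to the right, and the 1 red point is Slc18a2 at 0.98.

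Markers of the labelled tissue passed the brightness filter. All 9 chromaffin genes and all 8 cortex genes on the array were tested, and summed intensities ran from 33000.8 to 53102.3 and from 89169.6 to 131670.7 over the 8 pools. The chromaffin list had 9 of 9 genes higher in hypoxic pools and a median of 0.25. Of these, 1 passed the threshold, where 0.225% of all tested genes did. This was Slc18a2, the vesicular monoamine transporter (log2 0.98, limma adjusted p = 0.0318, and 0.059 with no filter). Its dimmer probe set differed by 0.61 (limma, adjusted p = 0.399), and the groups overlapped there. At an unadjusted p of 0.05 in limma, 5 of the 9 passed, where 8.56% of all tested genes did. All 8 tested adipose genes were lower, median -0.17, with 0 past the threshold and 1 at an unadjusted p under 0.05. Ucp1, the uncoupling protein of brown fat, had a wide spread, from 381.2 to 1820.3 in normoxic and from 92.3 to 510.7 in hypoxic pools. Leukocyte genes had 3 higher and 6 lower (median -0.13), endothelial genes 3 higher and 5 lower (-0.03) and capsule and fibroblast genes 6 higher and 3 lower (0.05), with 0 past the threshold in each and 3 of 9, 1 of 8 and 0 of 9 at an unadjusted p under 0.05 in limma, against the same 8.56%. The beta-actin 5' over 3' ratio was lowest in hypoxic pool 1, at 0.249, against 0.413 to 0.744 in normoxic and 0.491 to 0.713 in the other hypoxic pools. Without that pool the count of passing probe sets was 31 in place of 20. The part of these differences between pools in the Bcan difference was not tested beyond the covariate fits.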

How the data were processed

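Adrenal glands of normoxic and hypoxic pups were measured in 8 pools, 4 per group, and the deposited values are probe set intensities on a linear scale. The software and genome build behind them are not given in the sources used here. With 2% trimmed from either end, every array averaged 500.1, so the authors' intensity values had been scaled. The members and lists were chosen with earlier results of these data known.

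Genes were named from the platform annotation: 12783 of the probe sets had 1 symbol, 312 several and 2771 none. Values were floored at 1, 16 was added and log2 was taken. All differences are on this scale, which understates those of dim probe sets. Array medians lay within 0.117, under a limit of 0.2, so no further normalization was made. Probe sets under the 30th percentile of mean log2 (a signal of 95.2) were left out, and a list gene stands at its brightest tested probe set. Groups were compared with limma 3.58.1 (lmFit, eBayes with a trend) in R 4.3.3. Tests were two-sided, and p-values were adjusted by Benjamini and Hochberg's method over 11106 probe sets. The fit was tested on simulated data with known differences. All members were named. The rule for the lists took up to 3 genes of lowest p and any gene past the threshold. For the chromaffin, cortex, adipose, leukocyte, endothelial and fibroblast lists, only some of these are given here. On deviations, the 5 genes most like and 3 least like Bcan were named, and on log2 values the 3 most like it. Other list genes are named for their role and were picked after their values were seen. Alternatives changed the offset, filter, trend, normalization, covariates and pools. Python 3.11.15 was used for tables and plots. Promoter windows came from the RefSeq table of GRCr8, where all 6 members matched.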

Additional observations from a re-analysis of the deposited data

Results flagged for a closer look

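Values of single pools stood apart from the other 3 of their group in 8 of the 106 groups of 4 looked at, by the ratio of the gap to the whole range (Dixon's 95% critical value). Chance gives about 1 in 20. Among the members this was Cnp on its brighter probe set, where normoxic pool 1 read 818.8 and the others 676.0 to 690.5. In hypoxic pool 1, Cldn11 read 283.1 (others 113.0 to 129.5) and Nr5a1 read 363.7 (others 1076.6 to 1312.9). In normoxic pool 2, C1qc read 502.1 (others 415.5 to 421.6) and Nhp2 read 1167.1 (others 996.3 to 1010.1). Emcn read 924.0 in hypoxic pool 4 (others 1151.2 to 1200.8), Ina 661.0 in hypoxic pool 3 (others 577.8 to 590.7) and Tango2 968.1 in hypoxic pool 2 (others 920.6 to 926.7).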

How the results depend on the processing

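The brighter Bcan probe set was lower in hypoxic glands in all 19 alternatives, from -0.97 to -0.70. It met the adjusted threshold in 7 of them: 0 of 8 with a pool left out and 7 of 11 others. Bcan was chosen by this comparison in the same pools, so its tally describes the fits and is no test of Bcan. Gfap, the brighter Mbp probe set and Mag kept their sign in 18 of 18, Cnp on its brighter probe set in 19 of 19 and S100b in 14 of 19. These counts include the changes of filter and variance trend and the replicate block. There a difference between group means cannot move, so its sign was fixed in advance. S100b turned with arrays centred on the median, without normoxic pool 1, without hypoxic pools 2 or 4, and with the adipose sum as a covariate (0.11). The count of passing probe sets in limma, 20, was 0 with no filter (smallest adjusted p 0.0575, 1199 at an unadjusted p under 0.05), 0 with no variance trend (0.0770, 941) and 0 with the ratio of 5' to 3' Gapdh signal in the fit (0.0981, 813). It was 37 with the beta-actin ratio and 10 with the adipose sum as covariates, both chosen after seeing the data, and ran from 0 to 31 with single pools left out. Leaving out hypoxic pool 2 or 3, or any of normoxic pools 1, 2 and 3, gave 0. Leaving out normoxic pool 4 gave 1, and hypoxic pool 4 gave 2. The cause was not tested. Of the glial and matrix list genes, 0 passed in every alternative but the beta-actin covariate, where 1, S100a13, passed (log2 -0.91, adjusted p = 0.0490).

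With the replicate number as a block, 18 probe sets passed. The Bcan difference of -0.81 cannot change with this block, since each number occurs once in each group. Deviations of pools with the same number had r of 0.323, 0.0026, 0.186 and -0.0434 over probe sets, and 2 of the 4 normoxic pools correlated best with their own number, so the numbers were not taken to pair the pools. The number of arrays limits what can be seen for every gene. Signal near the controls adds to this for Sox10 and the dimmer Mbp probe set. Mag read above the highest bacterial control value, 83.5, and a little above the brightness limit of 95.2.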

Other observations

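Among glial list genes below the brightness filter, 2 are named here after their values were seen. Aldoc, the aldolase isozyme of brain and astrocytes, read 31.9, 40.4, 33.1 and 31.9 in normoxic and 209.9, 160.5, 98.2 and 159.2 in hypoxic pools. All hypoxic pools lay above all normoxic pools, whose values were within the range of the bacterial controls (highest 83.5), so no size is given for the difference. With no filter its adjusted p was 0.0575 in limma.

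Nfasc, the gene of neurofascin, an adhesion protein where axon and myelin meet, read 106.5, 180.0, 196.5 and 182.0 in normoxic and 87.4, 21.1, 22.5 and 58.2 in hypoxic pools on 1 of its 3 probe sets. The groups did not overlap there, hypoxic pools 2, 3 and 4 were within the range of the bacterial controls, and the fitted log2 difference was -1.63 with a standard error of 0.34 (limma with no filter, adjusted p = 0.195). Its other probe sets differed by 0.11 and 0.24 and overlapped between groups.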
